A study of Mus musculus with 6 samples.

Results

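The 38 genes described here are genes of the interferon response, taken by symbol from a table of 46452 genes measured in mouse hearts. All 38 were found, 37 under their own symbol and Rigi under its older symbol Ddx58, which lies at the locus that the GRCm39 annotation names Rigi. The hearts came from mice aged 10 days, with 3 messenger RNA libraries from mice with loxP-flanked Nat10 alleles (Nat10 flox/flox) and 3 from mice labelled Nat10-CKO, for conditional knockout. The labels call the libraries of a group independent biological replicates and do not say whether a library holds 1 heart or several. The Cre driver, the deleted exons and the sex and strain of the mice are not given in the sources used here. Levels are FPKM, fragments scaled to gene length and sequencing depth, and 37 of the 38 genes had a mean of at least 1 FPKM over the 6 libraries and were tested. The gene left untested was Cgas, the cytosolic DNA sensor, at 0.731, 0.840 and 0.864 FPKM against 0.361, 0.446 and 0.740 FPKM.

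Interferons are secreted proteins that alert cells to foreign or misplaced nucleic acid. Sensors of RNA (RIG-I, MDA5) and of DNA (cGAS, through STING) switch on interferon genes by way of the factors IRF3 and IRF7. Type I interferons then signal through their receptor to a complex that holds STAT2 and IRF9, which binds a promoter element known as ISRE. Interferon-gamma, made mainly by T cells and natural killer cells, acts on another element, GAS, and is a strong inducer of IRF1, the guanylate-binding proteins and the immunity-related GTPases. In the heart, as elsewhere, the induced genes can be expressed by muscle, vessel and immune cells alike, and in a whole-heart sample fewer cells of a type and less RNA per cell cannot be told apart.

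The libraries differ in ways that bear on these genes. Each library held between 31155521 and 38051266 reads in genes. Nat10 itself was 3.75, 4.18 and 4.71 FPKM against 8.28, 8.66 and 10.2 FPKM (0.94 ± 0.12 SE in log2 fold change, limma adjusted p = 0.00142). The libraries labelled Nat10-CKO thus held more reads of the target gene and not fewer. A level over the whole gene does not show which exons or cells the reads came from, so it does not test the label. Every direction below refers to that label. Over all 11996 tested genes 40.5% passed the threshold of an adjusted p under 0.05, 24.4% higher and 16.0% lower. Higher genes made up 60.4% of the calls, and 41.8% when mitochondrially encoded genes were left out and the remainder rescaled, which moved the median log2 fold change of all tested genes from 0.03 to -0.12. An earlier analysis of these data found Nat10 flox/flox replicate 1 and Nat10-CKO replicate 1 to stand apart.

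The promoters of a few members show the elements through which these genes are known to respond. They are RefSeq windows on GRCm38.p6, from 250 bases before to 50 bases after the annotated start, written along the gene's strand. Capitals mark the core of the ISRE, GAAA then any 2 bases then GAAA, searched on both strands, and the GAS, TTC then any 3 bases then GAA, which reads the same on both. Ifit1 (chr19:34640639-34640938, plus strand) and Isg15 (chr4:156200769-156201068, minus strand) are shown as the members with the highest folds between the groups once Nat10-CKO replicate 1 was left out. Gbp7 (chr3:142530086-142530385, plus strand), Gbp2 (chr3:142620413-142620712, plus strand) and Irf1 (chr11:53769764-53770063, plus strand) are shown as members that were highest in Nat10 flox/flox replicate 2.
Ifit1: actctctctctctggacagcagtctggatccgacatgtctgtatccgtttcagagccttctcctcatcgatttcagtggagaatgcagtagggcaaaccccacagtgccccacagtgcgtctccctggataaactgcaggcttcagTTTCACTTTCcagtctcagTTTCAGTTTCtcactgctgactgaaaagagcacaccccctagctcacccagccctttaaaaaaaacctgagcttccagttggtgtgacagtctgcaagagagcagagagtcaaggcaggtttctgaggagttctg
Isg15: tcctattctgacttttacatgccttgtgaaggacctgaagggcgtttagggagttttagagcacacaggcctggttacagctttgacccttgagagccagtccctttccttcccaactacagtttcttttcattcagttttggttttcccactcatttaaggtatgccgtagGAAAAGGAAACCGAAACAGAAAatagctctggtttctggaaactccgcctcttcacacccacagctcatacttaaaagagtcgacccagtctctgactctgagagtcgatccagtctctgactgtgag
Gbp7: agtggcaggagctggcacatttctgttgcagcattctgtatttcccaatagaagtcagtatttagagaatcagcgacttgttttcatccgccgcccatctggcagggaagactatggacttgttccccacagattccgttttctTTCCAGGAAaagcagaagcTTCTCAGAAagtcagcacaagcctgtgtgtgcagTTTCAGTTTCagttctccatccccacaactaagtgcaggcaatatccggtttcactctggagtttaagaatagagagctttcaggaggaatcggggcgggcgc
Gbp2: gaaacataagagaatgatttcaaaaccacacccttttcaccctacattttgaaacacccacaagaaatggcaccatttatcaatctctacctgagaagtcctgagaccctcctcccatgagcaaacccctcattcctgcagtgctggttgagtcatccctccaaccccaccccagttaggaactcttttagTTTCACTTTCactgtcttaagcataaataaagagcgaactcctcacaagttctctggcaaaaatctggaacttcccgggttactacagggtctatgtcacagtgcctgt
Irf1: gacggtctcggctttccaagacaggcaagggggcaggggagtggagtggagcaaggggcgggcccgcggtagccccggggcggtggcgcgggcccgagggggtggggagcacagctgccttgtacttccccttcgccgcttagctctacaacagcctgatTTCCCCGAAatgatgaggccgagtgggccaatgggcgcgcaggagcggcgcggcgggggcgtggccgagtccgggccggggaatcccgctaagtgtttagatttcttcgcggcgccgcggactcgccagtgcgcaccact
The Ifit1 window holds 2 ISRE cores, beginning 104 and 85 bases before the start. That of Isg15 holds 3 that overlap one another, beginning 78, 72 and 66 bases before it. Gbp7 has an ISRE core at 53 bases and GAS letters at 106 and 87 bases, Gbp2 has an ISRE core at 59 bases, and Irf1 has GAS letters at 90 bases and no ISRE core in this window. No ISRE core overlaps GAS letters in these windows. A promoter window was at hand for 28 of the 38 members, of which 15 (53.6%) hold the ISRE core and 9 (32.1%) the GAS letters. Neither was found in the windows of Irf7 and Oasl1 or in another window of Irf1. The same holds for Irf3, Oasl2 and Cmpk2, which were also highest in Nat10 flox/flox replicate 2. Among all 27025 genes with a window the shares were 3.99% and 9.55%, and among all 32851 windows 3.44% and 8.30%. A match of letters is a description of the sequence and not a measured binding site.

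Over the whole list the groups differed little on average, and the libraries labelled Nat10-CKO differed greatly among themselves. Of the 37 tested members, 1 passed as higher (Ifit1) and 1 as lower (Gbp7), against 24.4% and 16.0% of all tested genes, and at an unadjusted p under 0.05 the counts were 4 and 2. The median log2 fold change was 0.07 for the members and 0.03 for all tested genes, with members between -1.48 and 2.08. The standard error of a member's log2 fold change had a median of 0.40, against 0.14 for all tested genes. Within the libraries labelled Nat10-CKO the SD of log2(FPKM + 1) had a median of 0.72 over the members and 0.18 over all tested genes, and within the Nat10 flox/flox libraries 0.26 and 0.13. The groups did not overlap for 5 tested members. Ifit1, Oas3 and Mx2 were higher in every library labelled Nat10-CKO (31.5% of all tested genes did the same), and Cmpk2 and Gbp7 were lower in every one (24.4% of all tested genes).

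**Figure D1:**
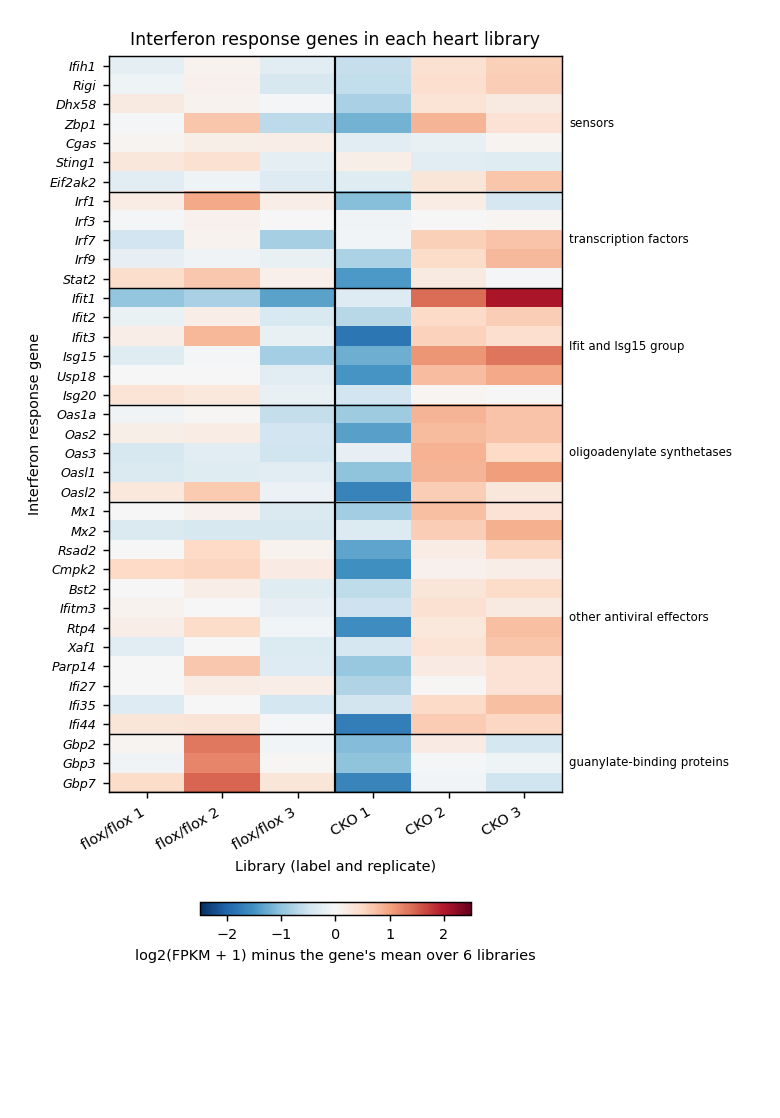
Level of each of the 38 interferon response genes (rows, grouped by role) in each of the 6 libraries (columns), as log2(FPKM + 1) minus the gene's mean over the 6 libraries, blue for low and red for high. The column of Nat10-CKO replicate 1 is mostly blue and those of Nat10-CKO replicates 2 and 3 are mostly red, while the 3 guanylate-binding protein genes are reddest in Nat10 flox/flox replicate 2.

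Nat10-CKO replicate 1 was the lowest of the 6 libraries for 31 of the 37 tested members (83.8%), where it was the lowest for 26.1% of all tested genes. On the log2(FPKM + 1) scale it lay below the mean of Nat10-CKO replicates 2 and 3 for 36 of the 37, by a median of 1.24, while the median difference over all tested genes was -0.02. Sting1 was the exception. The highest library was Nat10-CKO replicate 3 for 17 members, Nat10-CKO replicate 2 for 8, Nat10 flox/flox replicate 2 for 11 and Nat10 flox/flox replicate 1 for 1. Among all tested genes 21.1%, 9.89%, 14.2% and 14.1% were highest in these libraries, in the same order. Summed over all 38 genes, FPKM came to 791, 979 and 688 in Nat10 flox/flox hearts and 499.6, 1147 and 1269 in hearts labelled Nat10-CKO. The libraries labelled Nat10-CKO thus held both the lowest sum and the 2 highest.

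**Figure D2:**
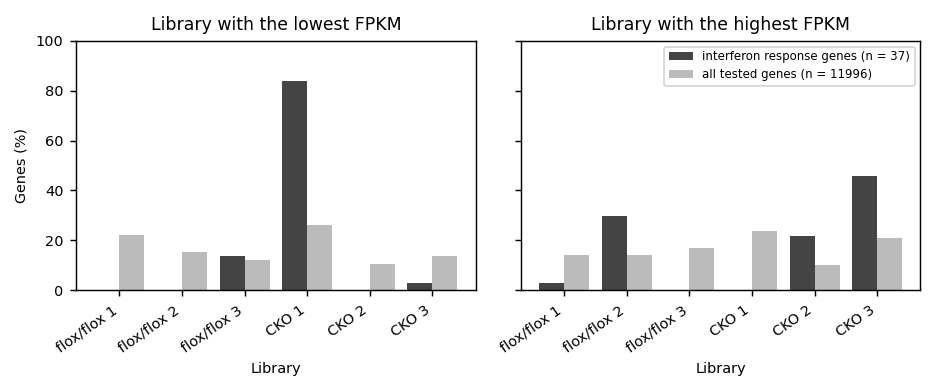
Share of genes (%) for which each library had the lowest (left) or the highest (right) FPKM of the 6, for the 37 tested interferon response genes (dark bars) and all 11996 tested genes (light bars). Nat10-CKO replicate 1 was the lowest library for 83.8% of the interferon response genes and 26.1% of all genes.

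The counts changed most when Nat10-CKO replicate 1 was left out. That library was singled out with its low values for these genes known, so the counts and tests without it, here and below, are a description of the remaining 5 libraries and no independent support for a direction. Without it 17 of 37 passed as higher, against 26.0% of all tested genes, and 0 passed as lower, against 16.0% (limma in both cases, with 1 member lower at an unadjusted p under 0.05). The median log2 fold change of the members became 0.41, and that of all tested genes 0.05. It went below 0 without Nat10-CKO replicate 2 (-0.19), Nat10-CKO replicate 3 (-0.17) or Nat10 flox/flox replicate 3 (-0.05), and was 0.11 and 0.18 without Nat10 flox/flox replicates 1 and 2. With all libraries and mitochondrially encoded genes left out it was -0.13, and that of all tested genes -0.12. Without Nat10-CKO replicate 1, 21 tested members were higher in both remaining libraries labelled Nat10-CKO than in every Nat10 flox/flox library (37.4% of all tested genes), and 3 were lower (29.3%). Leaving out any one of the other 5 libraries gave at most 1 higher member, which was Irf7 without Nat10 flox/flox replicate 2. Without Nat10 flox/flox replicate 1 alone 0 passed as higher and 0 as lower (limma, with 1 and 1 at an unadjusted p under 0.05), against 19.8% and 12.7% of all tested genes. Without replicate 1 of both labels 15 passed as higher and 0 as lower (limma, with 19 and 1 at an unadjusted p under 0.05), against 24.4% and 15.9%. With the libraries weighted by their scatter (array weights), 14 passed as higher and 1 as lower, against 32.8% and 25.1% of all tested genes. Nat10-CKO replicates 1, 2 and 3 had weights of 0.242, 5.63 and 0.584, so the level of that label rested mainly on replicate 2. These counts too are a description and no independent support for a direction.

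**Figure D3:**
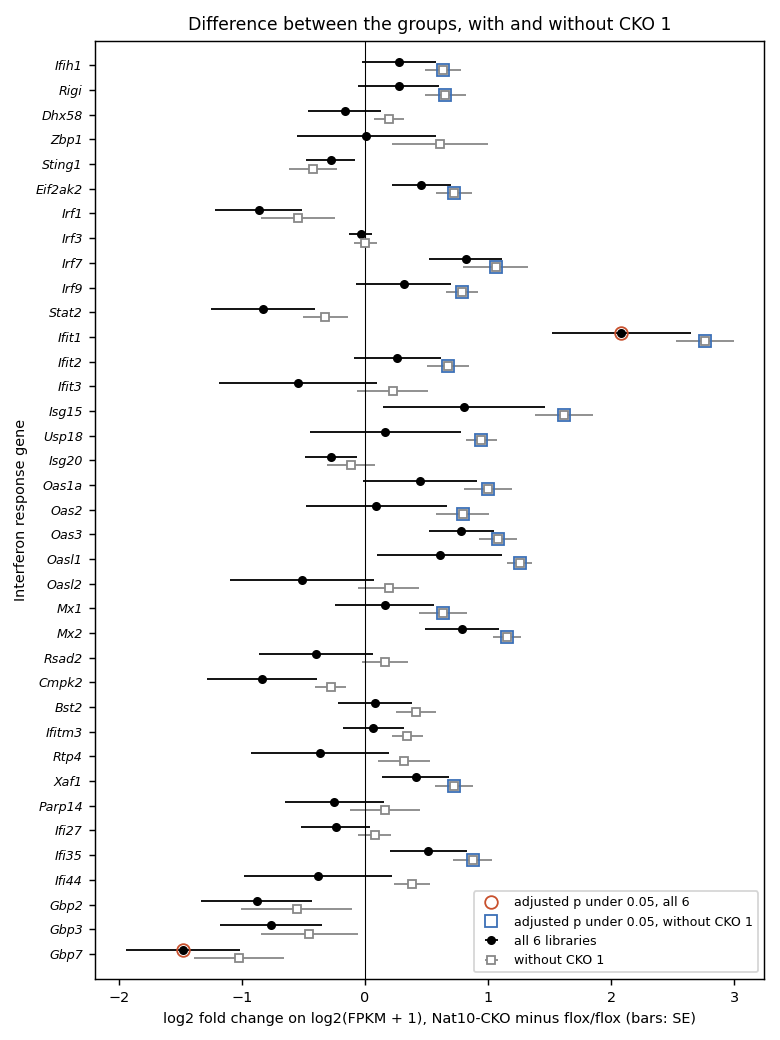
Log2 fold change on the log2(FPKM + 1) scale, libraries labelled Nat10-CKO minus Nat10 flox/flox, with its SE, for the 37 tested interferon response genes, from all 6 libraries (filled circles) and without Nat10-CKO replicate 1 (open squares). Rings mark the 2 genes that passed with all libraries, Ifit1 and Gbp7, and larger squares the 17 that passed without that library.

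The Ifit genes encode proteins that bind foreign RNA, or one another, and hinder its translation. Ifit2, Ifit3 and Ifit1 lie in the same stretch of chromosome 19 (chr19:34527961-34627409, GRCm39). Ifit1 (gene ID 15957, chr19:34618289-34627409, plus strand) was 21.3, 23.8 and 16.4 FPKM in Nat10 flox/flox hearts and 34.03, 115 and 179 FPKM in hearts labelled Nat10-CKO. The groups did not overlap, and Nat10-CKO replicates 2 and 3 were far above replicate 1. Ifit1 rose from 20.5 ± 3.79 to 109 ± 72.5 FPKM (SD, n = 3 per group), which is 5.32-fold (2.08 ± 0.56 SE in log2 fold change, limma adjusted p = 0.0257). The fold was 7.16 without Nat10-CKO replicate 1 (adjusted p = 0.000837). With no filter on low genes its adjusted p was 0.0752. The call was also lost on leaving out any other library, with adjusted p of 0.0625, 0.0607 and 0.0813 without Nat10 flox/flox replicates 1, 2 and 3 and 0.0826 and 0.0554 without Nat10-CKO replicates 2 and 3. Ifit2 and Ifit3 were both lowest in Nat10-CKO replicate 1. Ifit2 was 16.1, 20.4 and 13.6 FPKM against 10.8, 25.7 and 28.2 FPKM, and it passed only without Nat10-CKO replicate 1 (adjusted p = 0.582 with all libraries and 0.0250 without it). Ifit3 was 21.6, 34.4 and 16.7 FPKM against 4.71, 28.8 and 25.8 FPKM and passed in neither (adjusted p = 0.524 and 0.558). Ifit3 shares much of its sequence with Ifit3b, and how reads were divided between such copies is not known.

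Isg15, a ubiquitin-like modifier, and Usp18, the protease that removes it and also restrains the type I receptor, were lowest in Nat10-CKO replicate 1 and highest in the other libraries of that label. Isg15 (gene ID 100038882, chr4:156283881-156285275, minus strand) was 22.4, 26.9 and 15.2 FPKM in Nat10 flox/flox hearts and 11.4, 61.2 and 71.8 FPKM in hearts labelled Nat10-CKO. Its lowest and its 2 highest values were thus all in libraries of 1 label, and it was the member with the largest gap between Nat10-CKO replicate 1 and the mean of the other 2, at -2.44 on the log2(FPKM + 1) scale. The difference missed the threshold (0.80 ± 0.66 SE in log2 fold change, limma adjusted p = 0.363), and without Nat10-CKO replicate 1 it was 3.09-fold (1.62 ± 0.24 SE in log2 fold change, limma adjusted p = 0.00391). Usp18 was 12.8, 12.8 and 10.5 FPKM in Nat10 flox/flox hearts and 3.91, 22.6 and 25.5 FPKM in hearts labelled Nat10-CKO. It followed the same order, with Nat10-CKO replicate 1 below all others, and gave a log2 fold change of 0.16 (adjusted p = 0.850 by limma) or 0.95 (adjusted p = 0.00276) without that library. With all libraries its direction turned under quantile normalization (-0.015) and with mitochondrially encoded genes left out (-0.018). Isg20, an exonuclease, was low throughout (adjusted p = 0.332), at 1.998, 1.84 and 1.07 FPKM against 0.704, 1.44 and 1.37 FPKM.

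**Figure D4:**
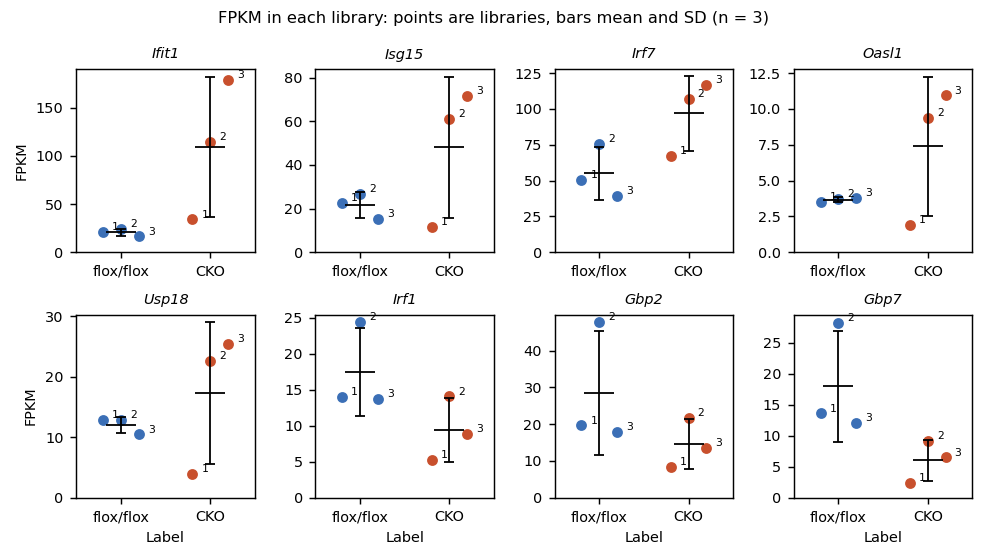
FPKM of 8 interferon response genes in each library, with points numbered by replicate and bars for the mean and SD of each label (n = 3). For Ifit1, Isg15, Oasl1 and Usp18 the points of Nat10-CKO replicates 2 and 3 lie above all others, and for Irf1, Gbp2 and Gbp7 the highest point is Nat10 flox/flox replicate 2.

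The oligoadenylate synthetases make a short RNA messenger that activates RNase L. With all libraries 0 of the 5 passed (limma, with 1 higher at an unadjusted p under 0.05). Without Nat10-CKO replicate 1, 4 passed as higher, as did 26.0% of all tested genes. Oas3, the member of this family with the smallest adjusted p, was 1.16, 1.34 and 1.02 FPKM in Nat10 flox/flox hearts and 1.48, 4.199 and 3.05 FPKM in hearts labelled Nat10-CKO. Its groups did not overlap, at means of 1.17 ± 0.162 and 2.91 ± 1.37 FPKM (SD, n = 3 per group; 0.78 ± 0.27 SE in log2 fold change, limma adjusted p = 0.0552). Without Nat10-CKO replicate 1 the fold went from 2.47 to 3.08 (adjusted p = 0.00375). Oasl1, an inhibitor of Irf7 translation, was steady among the Nat10 flox/flox libraries and not in the others, at 3.504, 3.697 and 3.803 FPKM against 1.88, 9.39 and 10.9 FPKM. Its adjusted p was 0.376, or 0.00076 without Nat10-CKO replicate 1, where the log2 fold change was 1.26. Oas1a was 7.12, 7.81 and 4.75 FPKM against 3.66, 14.6 and 13.2 FPKM and Oas2 9.21, 9.39 and 5.603 FPKM against 2.58, 14.8 and 13.95 FPKM, with adjusted p of 0.0104 and 0.0302 without that library. Oasl2, which lies next to Oasl1 on chromosome 5, passed in neither fit. Oasl2 was 16.5, 22.2 and 12.2 FPKM against 3.64, 21.4 and 16.9 FPKM, with a log2 fold change of -0.51 (adjusted p = 0.510) or 0.19 (adjusted p = 0.562) without Nat10-CKO replicate 1.

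Of the transcription factors, 0 of 5 passed with all libraries (limma, with 1 higher and 1 lower at an unadjusted p under 0.05). Irf7 and Irf9 passed as higher without Nat10-CKO replicate 1, as did 26.0% of all tested genes. Irf7 (gene ID 54123, chr7:140843096-140846412, minus strand), the factor that amplifies type I interferon production, was 50.6, 75.4 and 39.2 FPKM in Nat10 flox/flox hearts and 67.2, 107 and 117 FPKM in hearts labelled Nat10-CKO. Only Nat10-CKO replicate 1 fell within the range of the Nat10 flox/flox libraries. It averaged 55.1 ± 18.5 and 97.05 ± 26.3 FPKM (SD, n = 3 per group; 0.82 ± 0.30 SE in log2 fold change, limma adjusted p = 0.0665), and leaving out Nat10-CKO replicate 1 or Nat10 flox/flox replicate 2 gave an adjusted p of 0.0235 or 0.0382. Irf9, the DNA-binding part of the type I complex, was 25.1, 27.4 and 25.6 FPKM against 16.4, 40.1 and 51.8 FPKM (adjusted p = 0.542, or 0.00612 without Nat10-CKO replicate 1). Stat2, its partner, was 21.4, 25.6 and 17.1 FPKM against 5.13, 18.3 and 15.2 FPKM, with a log2 fold change of -0.83 (adjusted p = 0.160), and Nat10-CKO replicate 1 held less than any other library. Irf1, which interferon-gamma induces, was 13.98, 24.5 and 13.8 FPKM against 5.28, 14.1 and 8.88 FPKM, highest in Nat10 flox/flox replicate 2 and not past the threshold (log2 fold change -0.86, adjusted p = 0.0947). Without Nat10-CKO replicate 2 Irf1 passed as lower (adjusted p = 0.0409). Irf3, which the sensors activate at the protein level, had the smallest standard error of the members, at 11.9, 13.4 and 12.2 FPKM against 11.5, 12.3 and 12.7 FPKM (log2 fold change -0.04 ± 0.10 SE).

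Among the nucleic acid sensors 6 of 7 were tested, and 0 passed with all libraries (limma, with 0 at an unadjusted p under 0.05). Without Nat10-CKO replicate 1, 3 passed as higher, as did 26.0% of all tested genes. Eif2ak2, the RNA-activated kinase PKR that phosphorylates eIF2, was 4.38, 5.03 and 4.17 FPKM in Nat10 flox/flox hearts and 4.25, 6.93 and 9.42 FPKM in hearts labelled Nat10-CKO. Nat10-CKO replicate 1 lay within the Nat10 flox/flox range and the other 2 of that label above it (0.46 ± 0.24 SE in log2 fold change, limma adjusted p = 0.174; adjusted p = 0.0121 without that library). Rigi, the sensor RIG-I, was 9.24, 10.8 and 7.32 FPKM against 6.15, 13.7 and 15.9 FPKM, and Ifih1, the sensor MDA5, was 5.96, 7.71 and 5.82 FPKM against 4.53, 9.699 and 11.5 FPKM. Their adjusted p went from 0.534 to 0.0258 and from 0.492 to 0.0179 without Nat10-CKO replicate 1. Dhx58, the related helicase LGP2, was 3.66, 3.23 and 2.87 FPKM against 1.29, 4.05 and 3.67 FPKM, and Zbp1, a sensor of Z-form nucleic acid, was 5.51, 9.92 and 3.32 FPKM against 1.97, 11.2 and 7.65 FPKM. Neither passed with or without Nat10-CKO replicate 1 (adjusted p = 0.681 and 0.242 for Dhx58, 0.992 and 0.259 for Zbp1). Sting1, the adaptor of the DNA pathway, was 6.81, 7.36 and 4.49 FPKM against 6.12, 4.402 and 4.21 FPKM (log2 fold change -0.28, adjusted p = 0.297). It was the tested member for which Nat10-CKO replicate 1 lay above the other libraries of its label.

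The other antiviral effectors, 12 in number, had 0 calls with all libraries (limma, with 1 higher at an unadjusted p under 0.05). Without Nat10-CKO replicate 1, 4 passed as higher (Mx1, Mx2, Xaf1 and Ifi35), as did 26.0% of all tested genes. Mx2, which the authors' table marks like Mx1 as a transcribed pseudogene, was 3.15, 3.01 and 3.01 FPKM in Nat10 flox/flox hearts and 3.204, 7.205 and 8.89 FPKM in hearts labelled Nat10-CKO. Its groups did not overlap, with Nat10-CKO replicate 1 just above the Nat10 flox/flox libraries (0.78 ± 0.30 SE in log2 fold change, limma adjusted p = 0.0787; adjusted p = 0.00116 without that library). Mx1 was 2.53, 2.799 and 1.74 FPKM against 0.926, 4.93 and 3.49 FPKM (adjusted p = 0.773, or 0.0442 without it). Xaf1, an antagonist of the apoptosis inhibitor XIAP, was 7.14, 8.63 and 6.67 FPKM against 6.29, 11.3 and 14.7 FPKM, and Ifi35 was 22.9, 28.5 and 21.2 FPKM against 20.6, 40.9 and 49.3 FPKM. Their adjusted p without Nat10-CKO replicate 1 was 0.0140 and 0.00786.

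Rsad2 (viperin) and Cmpk2 are neighbours on chromosome 12 that act on cytidine nucleotides. Rsad2 was 16.1, 23.01 and 17.1 FPKM against 5.82, 18.3 and 23.6 FPKM (adjusted p = 0.516, or 0.526 without Nat10-CKO replicate 1). Cmpk2 was 10.3, 10.6 and 8.26 FPKM against 1.75, 7.58 and 8.02 FPKM, below every Nat10 flox/flox library in each library labelled Nat10-CKO, but the difference did not pass (log2 fold change -0.84, adjusted p = 0.176; 0.130 without Nat10-CKO replicate 1). The 3 members with the highest mean FPKM were Ifitm3, Ifi27 and Bst2. Ifitm3, which blocks viral entry at membranes, was 159, 151 and 131 FPKM against 104, 196 and 176 FPKM. Ifi27 was 108, 121 and 120 FPKM against 62.8, 109 and 138 FPKM, and Bst2 (tetherin), which holds budding virus at the cell surface, was 92.2, 102 and 73.7 FPKM against 58.6, 112 and 125 FPKM. For all 3 Nat10-CKO replicate 1 was the lowest library, and none passed with or without it (adjusted p of 0.849, 0.518 and 0.847, or 0.0730, 0.668 and 0.0866). Rtp4, Parp14 and Ifi44 likewise passed in neither, with log2 fold changes of -0.37, -0.25 and -0.38 that became 0.32, 0.16 and 0.38 without Nat10-CKO replicate 1. Ifi44 was 7.65, 7.72 and 5.71 FPKM against 1.12, 9.76 and 9.02 FPKM.

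The guanylate-binding proteins, GTPases that attack the membranes around intracellular microbes, had 1 of 3 members passing, as lower, against 16.0% of all tested genes. Gbp7, Gbp3 and Gbp2 lie together on chromosome 3 (chr3:142236097-142343769, GRCm39). Gbp7 (gene ID 229900, chr3:142236097-142255912, plus strand) was 13.6, 28.3 and 12.1 FPKM in Nat10 flox/flox hearts and 2.403, 9.12 and 6.48 FPKM in hearts labelled Nat10-CKO. The groups did not overlap, and Nat10 flox/flox replicate 2 stood above the rest. Gbp7 fell from 17.98 ± 8.95 to 6.002 ± 3.38 FPKM (SD, n = 3 per group), which is 2.996-fold (-1.48 ± 0.47 SE in log2 fold change, limma adjusted p = 0.0426). The fold was 2.14 without Nat10 flox/flox replicate 2 (adjusted p = 0.118) and 2.305 without Nat10-CKO replicate 1 (adjusted p = 0.0685). The call was also lost without Nat10 flox/flox replicate 1 (0.0717) or 3 (0.0606) and without Nat10-CKO replicate 3 (0.0725), with no filter on low genes (0.112), and it held without Nat10-CKO replicate 2 (0.0369). Gbp2 was 19.7, 47.8 and 17.8 FPKM against 8.24, 21.7 and 13.5 FPKM and Gbp3 15.1, 38.8 and 16.4 FPKM against 7.55, 15.7 and 14.9 FPKM. Both had the same order of libraries at the ends, highest in Nat10 flox/flox replicate 2 and lowest in Nat10-CKO replicate 1, and neither passed (adjusted p = 0.164 and 0.180). These genes have close relatives in the same cluster, so their counts may share reads.

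The rest of the pathway was described with a list of 105 other genes, of which 90 were tested, 6 passed as higher and 11 as lower. These are 6.67% and 12.2% of those tested, against 24.4% and 16.0% of all tested genes. With mitochondrially encoded genes left out the counts were 2 and 18, against 17.6% and 24.5% of all tested genes. With no filter on low genes 10 of the calls were lost, those of Ifnar1, Tyk2, Tlr3, Tbk1, Socs3, Pias1, Igtp, Cxcl9, Tapbp and Psmb9 (adjusted p of 0.0529 to 0.112). In that fit 9.08% of all tested genes passed as higher and 6.63% as lower. Messenger RNA of the interferons themselves was close to absent. Of 10 interferon genes 8 had 0 reads in every library, where a count of 0 allows up to 3 reads. Ifnb1, interferon-beta, had 0 reads in each Nat10 flox/flox library and 1, 2 and 0 in those labelled Nat10-CKO. Ifng, interferon-gamma, had 2, 27 and 2 reads in Nat10 flox/flox hearts and 0, 2 and 2 in hearts labelled Nat10-CKO, with more reads in Nat10 flox/flox replicate 2 than in the other libraries together.

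Of 14 genes of receptors and signalling 4 passed as lower and 0 as higher (limma, with 5 lower and 1 higher at an unadjusted p under 0.05). Among all tested genes 16.0% passed as lower and 24.4% as higher. Ifngr2, the signalling chain of the interferon-gamma receptor, was 91.3, 91.7 and 84.2 FPKM in Nat10 flox/flox hearts and 30.03, 46.1 and 40.8 FPKM in hearts labelled Nat10-CKO. The groups did not overlap, and Ifngr2 fell from 89.05 ± 4.23 to 39.00 ± 8.21 FPKM (SD, n = 3 per group; -1.19 ± 0.17 SE in log2 fold change, limma adjusted p = 0.00230), a call that held on leaving out each library in turn. Il10rb, a chain shared by the receptors of interferon-lambda and interleukin-10, fell from 53.2 ± 3.88 to 29.4 ± 8.16 FPKM (-0.87 ± 0.20 SE in log2 fold change, limma adjusted p = 0.0149; 0.0556 without Nat10 flox/flox replicate 2). Tyk2, a kinase bound to the type I receptor, fell from 7.21 ± 0.999 to 4.76 ± 0.745 FPKM (-0.51 ± 0.14 SE in log2 fold change, limma adjusted p = 0.0266), and it no longer passed without Nat10 flox/flox replicate 1, 2 or 3 (0.0516, 0.0898 and 0.0564) or Nat10-CKO replicate 3 (0.0634). Ifnar1, a chain of the type I receptor itself, fell from 6.73 ± 0.465 to 5.198 ± 0.476 FPKM (adjusted p = 0.0442), and it passed on leaving out Nat10-CKO replicate 1 (0.0266) and not on leaving out any other library (0.0867 to 0.150), nor with protein-coding genes rescaled (0.0536) or total reads (0.0537).

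In the sensors and adaptors Traf3 and Tbk1 passed as higher and Tlr3 as lower, of 11 tested, against 24.4% and 16.0% of all tested genes. Traf3, an adaptor between sensors and the kinase TBK1, rose from 3.999 ± 0.0921 to 6.78 ± 1.27 FPKM (0.63 ± 0.14 SE in log2 fold change, limma adjusted p = 0.0123) and kept its call without each library in turn. Tlr3, the endosomal receptor of double-stranded RNA, fell from 3.69 ± 0.775 to 2.04 ± 0.589 FPKM (adjusted p = 0.0375), with the call lost without Nat10 flox/flox replicate 2 (0.117) or 3 (0.0836) and without Nat10-CKO replicate 1 (0.0605) or 3 (0.0586), and under quantile normalization (0.0504). Tbk1 itself rose 1.26-fold (adjusted p = 0.0398), and its call was lost without each library in turn (0.0509 to 0.129) and under each of the 4 other scalings (0.116 to 0.383). Of 7 tested negative regulators, Socs3, an inhibitor of cytokine receptors, rose 1.93-fold (adjusted p = 0.0350) and Pias1, an inhibitor of cytokine signalling, 1.31-fold (adjusted p = 0.0415). Socs3 no longer passed on leaving out Nat10 flox/flox replicate 1, 2 or 3 (0.0702, 0.0747 and 0.109) or Nat10-CKO replicate 3 (0.0507), nor with protein-coding genes rescaled (0.0621), total reads (0.0612) or mitochondrially encoded genes left out (0.0961). Pias1 passed only without Nat10-CKO replicate 2 (0.0481), with adjusted p of 0.0726 to 0.131 without the others and 0.0675 to 0.249 under the 4 other scalings.

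Of 48 tested further effectors 2 passed as higher and 4 as lower, against 24.4% and 16.0% of all tested genes. Iigp1, an immunity-related GTPase, had the smallest adjusted p of the lower ones at 157, 325 and 157 FPKM in Nat10 flox/flox hearts and 12.7, 36.5 and 30.5 FPKM in hearts labelled Nat10-CKO. The groups were far apart, and Iigp1 fell from 213 ± 96.9 to 26.6 ± 12.4 FPKM (SD, n = 3 per group), or 8.02-fold (-2.99 ± 0.45 SE in log2 fold change, limma adjusted p = 0.00285), with 5.91-fold without Nat10 flox/flox replicate 2 and a call that held without each library in turn. Ddx60, a helicase, fell from 4.39 ± 0.913 to 1.21 ± 0.643 FPKM (-1.32 ± 0.26 SE in log2 fold change, limma adjusted p = 0.00754) and also passed without each library in turn. Ifi207, of the DNA-binding PYHIN family, rose from 6.21 ± 0.733 to 9.13 ± 0.319 FPKM (0.49 ± 0.10 SE in log2 fold change, limma adjusted p = 0.0105), and it too passed without each library in turn. Ifitm2, a relative of Ifitm3, rose from 35.2 ± 0.602 to 46.7 ± 2.498 FPKM (0.40 ± 0.10 SE in log2 fold change, limma adjusted p = 0.0173), and no longer passed without Nat10 flox/flox replicate 2 (0.0597) or 3 (0.0586), under quantile normalization (0.286) or with mitochondrially encoded genes left out (0.158).

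The remaining lower effectors, Igtp and Cxcl9, are described because they complete the count. Igtp, another immunity-related GTPase, was 175, 411 and 175 FPKM against 53.98, 109 and 121 FPKM (log2 fold change -1.37, adjusted p = 0.0431). Its fold of 2.68 was 1.85 without Nat10 flox/flox replicate 2, and it passed only without Nat10-CKO replicate 3 when libraries were left out in turn (0.0496, and 0.0562 to 0.0990 for the others). Cxcl9, a chemokine that interferon-gamma induces, was 4.94, 14.7 and 3.05 FPKM against 0.682, 1.81 and 1.47 FPKM (log2 fold change -1.67, adjusted p = 0.0335). Its fold of 5.72 was 3.02 without Nat10 flox/flox replicate 2, and it missed the threshold on leaving out Nat10 flox/flox replicate 1 (0.0605) or any of the Nat10-CKO replicates (0.0801, 0.0632 and 0.0690). Class I antigen presentation, which carries peptides to T cells, had 2 lower and 0 higher of 10 genes (limma, with 4 lower and 0 higher at an unadjusted p under 0.05). Among all tested genes 16.0% passed as lower and 24.4% as higher. With mitochondrially encoded genes left out 6 were lower, where 24.5% of all tested genes were. All 10 were highest in Nat10 flox/flox replicate 2 and lowest in Nat10-CKO replicate 1, against 14.2% and 26.1% of all tested genes. Tapbp (tapasin) fell 1.72-fold (adjusted p = 0.0223) and Psmb9, an immunoproteasome subunit, 2.58-fold (adjusted p = 0.0414). Without Nat10 flox/flox replicate 2 their adjusted p was 0.0683 and 0.103. Tapbp also missed it on leaving out Nat10 flox/flox replicate 3 (0.0538) or Nat10-CKO replicate 3 (0.0557), and Psmb9 passed only without Nat10-CKO replicate 2 (0.0458).

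**Figure D5:**
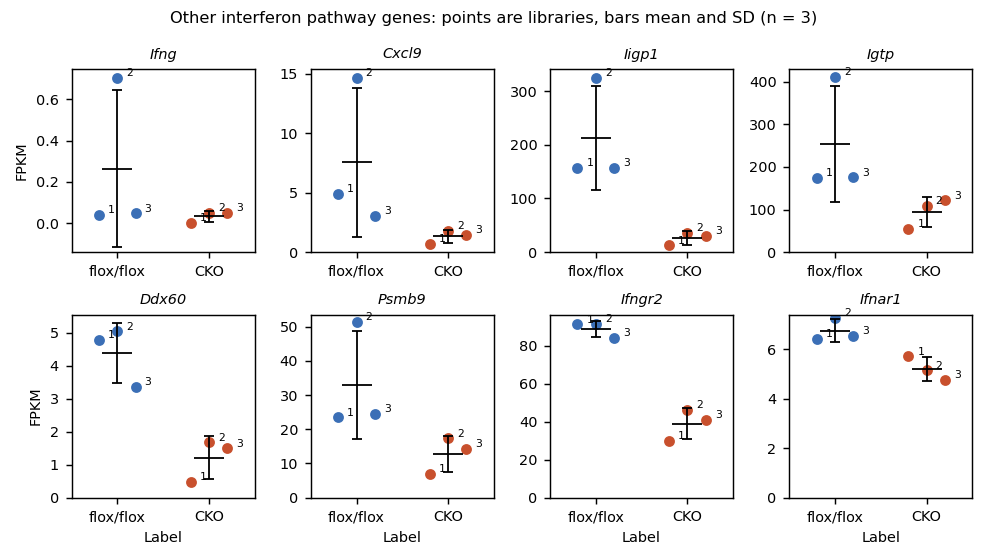
FPKM of 8 other interferon pathway genes in each library, with points numbered by replicate and bars for the mean and SD of each label (n = 3); the lower bar of Ifng reaches below 0 because its SD exceeds its mean. Nat10 flox/flox replicate 2 is the highest point for Ifng, Cxcl9, Iigp1, Igtp, Ddx60 and Psmb9. For Ifngr2 every Nat10-CKO point lies below every Nat10 flox/flox point.

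Cell type markers moved with some of these values, and their part in them was not tested. The 5 markers of T and natural killer cells (Cd3e, Cd3g, Cd8a, Nkg7 and Klrb1c) were all highest in Nat10 flox/flox replicate 2, the library with the highest levels of the guanylate-binding protein, Irf1 and class I genes. Their sum was 3.88, 18.1 and 3.25 FPKM in Nat10 flox/flox hearts and 3.17, 2.204 and 1.87 FPKM in hearts labelled Nat10-CKO, and of these markers Klrb1c had 0 reads in Nat10-CKO replicate 3. The 4 B cell markers summed to 3.26, 4.22 and 2.64 FPKM against 2.56, 2.32 and 2.53 FPKM. Of these, 3 were highest in Nat10 flox/flox replicate 2, and the 1 that was tested did not pass. The 10 macrophage markers summed to between 436 and 595 FPKM in Nat10 flox/flox hearts and between 467 and 535 FPKM in the others, and 0 of 10 passed in either direction (limma, smallest adjusted p = 0.210). Single macrophage markers in Nat10-CKO replicate 1 differed both ways from the other libraries of its label. Adgre1 was 21.02 FPKM there against 46.99 and 46.71 FPKM in replicates 2 and 3. C1qa, C1qb, C1qc and Fcgr1 were also lower there than in both. Cd163 was 10.79 against 1.39 and 2.83 FPKM, and Mrc1 14.61 against 6.66 and 8.59 FPKM. Csf1r, Cd68 and Lyve1 were also higher there than in both. Of the 8 endothelial markers 7 passed as lower, against 16.0% of all tested genes, with sums of 340 to 405 FPKM and 213 to 216 FPKM. In this sum Nat10-CKO replicate 1, at 216 FPKM, lay close to the other libraries of its label, but single markers differed both ways. Vwf was 24.7 FPKM there against 13.4 and 14.3 FPKM in replicates 2 and 3. Cdh5 was 36.8 against 50.4 and 46.4 FPKM, and Tie1 20.6 against 31.3 and 29.0 FPKM. Of the 5 pericyte and smooth muscle markers 3 passed as lower, against the same 16.0%, with sums of 217 to 254 FPKM and 113 to 133 FPKM. The 3 neutrophil markers summed to 6.997, 16.3 and 4.03 FPKM against 18.9, 7.08 and 1.78 FPKM, and the 3 monocyte markers to 2.91, 9.17 and 3.43 FPKM against 8.25, 3.58 and 2.89 FPKM. Both sums were thus high in Nat10 flox/flox replicate 2 and Nat10-CKO replicate 1, and none of the markers tested passed. The monocyte sum of Nat10-CKO replicate 1 was mostly Ccr2, at 5.87 FPKM against 0.811 and 0.704 FPKM in replicates 2 and 3 of that label. Ly6c2 was 1.82 FPKM there against 2.27 and 1.88 FPKM, and Plac8 0.562 against 0.493 and 0.309 FPKM. Of the neutrophil markers, Ly6g had 0 reads in that library. The 4 leukocyte markers, all highest in Nat10 flox/flox replicate 2, summed to 122.8, 184 and 107 FPKM against 114, 129.9 and 114 FPKM. The 6 fibroblast markers summed to 303, 321 and 339 FPKM against 504, 486 and 323 FPKM, highest in Nat10-CKO replicate 1, and 0 passed (limma, with Dcn higher and Lum lower at an unadjusted p under 0.05). The 2 markers of plasmacytoid dendritic cells, Siglech and Ccr9, summed to at most 0.124 FPKM in any library. The 6 markers of heart muscle were present in every library, at sums of 15271 to 18749 FPKM and of 9759, 14913 and 16629 FPKM. The lowest sum was in Nat10-CKO replicate 1, where 4 of the 6 were at their lowest. Tnnt2 was at its highest there (4301 FPKM), and Actn2, at 713 FPKM, lay above Nat10 flox/flox replicates 1 and 2 (589 and 684 FPKM). Of the 6, 1 passed as lower, Tnni3 (1660 to 558 FPKM, limma adjusted p = 0.00211), against 16.0% of all tested genes.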

How the data were processed

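Messenger RNA of mouse hearts was sequenced in 6 directional libraries with paired reads of 150 bp, per the labels' protocols. The series' design text gives HISAT2 2.2.1 for alignment to GRCm39 and featureCounts 2.0.6 for counting; CASAVA and DESeq2 1.42.0 appear in the submitters' processing notes. The authors deposited FPKM per gene and library, with coordinates and gene lengths. Strand setting and length definition are not given in the sources used here; hence overlapping and antisense genes are uncertain. FPKM times length came in whole reads for 100% of values (tolerance 0.01), which gave the reads quoted.

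The 3 libraries of each label were compared by limma-trend (limma 3.58.1, R 4.3.3, two-sided) on log2(FPKM + 1), over genes with a mean of at least 1 FPKM, with Benjamini-Hochberg adjustment over all 11996 tested genes and a threshold of 0.05. An adjusted p is from this test, or, where a setting or left-out library is named, from the same model with that choice changed, adjusted over the genes then tested. Log2 fold changes are on that scale, which understates low genes; a fold is 1 mean FPKM over the other. The test was checked on simulated reads, drawn with the same dispersion for every gene and no library that stands apart. The members typically varied more within a label than all tested genes did, so that check does not cover their spread. Members and lists were chosen with earlier results of these data known. All members are accounted for. Values in every library are given in full for members that passed, or for the one of smallest adjusted p in a role where none did, and for others chosen after their values were seen. Up to 4 other pathway genes per list were named by smallest adjusted p, and Igtp, Cxcl9, Ifng and Ifnb1 were added after their values were seen. The labels name no batch. One gene of the wider list is not reported here. Plots used matplotlib 3.10.9 (Python 3.11.15).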

Additional observations from a re-analysis of the deposited data

How the results depend on the processing

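Alternatives covered the pseudocount, the filter, the scaling, array weights, voom on recovered reads, a replicate block and left-out libraries. The 1 higher and 1 lower interferon response gene became 0 and 0 with no filter (limma, with 3 and 1 at an unadjusted p under 0.05). In that fit 27977 genes were tested, of which 9.08% passed as higher and 6.63% as lower. The higher count was 2 with a pseudocount of 0.1 or quantile normalization, 14 with array weights, and 0 to 17 on leaving out 1 library. The lower count was 2 with mitochondrially encoded genes left out and 0 to 2 on leaving out 1 library. Of all tested genes 17.6% passed as higher and 24.5% as lower with mitochondrially encoded genes left out, and 32.8% and 25.1% with array weights. On leaving out 1 library these shares were 17.7% to 26.0% and 10.1% to 16.0%. Without both libraries that stand apart (replicate 1 of each label) the counts were 15 and 0 (24.4% and 15.9% of all tested genes), with 1 lower at an unadjusted p under 0.05. The 6 higher genes of the wider pathway list became 3 with no filter, quantile normalization, protein-coding genes rescaled or total reads, 2 with mitochondrially encoded genes left out, 17 with array weights and 2 to 9 on leaving out 1 library. The 11 lower ones became 4 with no filter, 18 with mitochondrially encoded genes left out and 4 to 10 on leaving out 1 library. The cause of these changes was not tested. With the replicate number as a block, 3 interferon response genes and 19 of the wider list were lower, against 14.4% of all tested genes. The numbers share no stated origin. Same-numbered libraries correlated by 0.065, 0.037 and 0.105 in their deviations from the group means, and differently numbered ones by -0.116 to 0.072. Not every library correlated best with its own number. With 3 libraries per label these values cannot settle whether the numbers pair the samples. Irf9 turned to a log2 fold change of -0.014 without Nat10-CKO replicate 3, in a range of -0.014 to 0.79 over the left-out libraries. Usp18 turned to -0.015 under quantile normalization and -0.018 on removing mitochondrially encoded genes, and ranged from -0.27 to 0.99 over the left-out libraries, below 0 without Nat10-CKO replicate 2 (-0.19) or 3. Oas2 turned to -0.015 and -0.083 under the same pair of scalings, and ranged from -0.28 to 0.89, below 0 without Nat10-CKO replicate 2 or 3 (-0.24) or Nat10 flox/flox replicate 3 (-0.12). Mx1 ranged from -0.18 without Nat10-CKO replicate 2 to 0.68. Nat10-CKO replicate 1 stayed the lowest library for 28 to 32 tested members under the 4 other scalings. As to depth, 1 read per kb of gene was worth 0.0246 to 0.0316 FPKM.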
